A study of Mus musculus with 6 samples.

Results

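Erythroid cells were studied in 6 droplet libraries of single cells from the rotator cuff enthesis, the attachment of tendon to bone, taken 7 days post injury (dpi) and repair. They were chosen by their own RNA: of the barcodes with at least 500 unique molecules (UMIs), at least 200 genes and at most 10% mitochondrial UMIs, members were those in which the adult hemoglobin genes Hba-a1, Hba-a2, Hbb-bs and Hbb-bt made up at least 5% of UMIs. Col1a1, Col1a2 and Col3a1 together had to stay under 0.5% and S100a8 with S100a9 under 2%. The rule found 362 members among 98827 barcodes, 94 in wild-type controls and 268 in Nlrp3-/- mice, and 1 library (Nlrp3-/- replicate 2) held 42.3% of them. The 162 members with 5 to 30% hemoglobin UMIs (the lower class) and the 200 with over 30% (the upper class) were kept apart. Wild-type and Nlrp3-/- mice, adults of 12 to 14 weeks, had the same injury and repair, and each genotype gave 3 libraries; the entheses were described as pooled, so the spread between libraries may be partly technical. All values in threes below are for replicates 1, 2 and 3 of a genotype.

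The libraries held between 97042713 and 134901999 UMIs. Nlrp3, the inflammasome sensor that the knockout removes, gave 2, 1 and 7 UMIs in the wild-type libraries and 0, 0 and 0 UMIs in the Nlrp3-/- libraries among the members, and 0 UMIs also in every other kept barcode of the Nlrp3-/- libraries, a count that allows up to 3 per library; the RNA followed the sample titles, while another label of Nlrp3-/- replicates 2 and 3 names Nlrp4 and Nlrp5 in its place. Xist, the X-inactivation RNA of female cells, was at 0, 0 and 0 UMIs in the wild-type libraries and 140, 772 and 155 UMIs in the Nlrp3-/- libraries, and the Y-linked Ddx3y was at 6, 3 and 5 UMIs in the wild-type libraries and 0, 0 and 0 UMIs in the Nlrp3-/- libraries. Genotype and sex therefore cannot be told apart in any comparison below. No barcode was a member in more than 1 library, and 6 of 362 members carried a barcode that was kept in another library too.

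Red cells arise in the bone marrow from progenitors that divide several times while they fill with hemoglobin, a tetramer of alpha and beta globin chains that each hold a heme. As an erythroblast matures it stops dividing, packs and expels its nucleus and, as a reticulocyte, clears its ribosomes and organelles, while RNA for hemoglobin and for a few late proteins persists. GATA1 and KLF1, which bind GATA and CACCC sequences, drive most of this program, and heme, whose synthesis begins with the mitochondrial enzyme ALAS2, is needed for globin to be produced.

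Most members carried erythroid markers that the rule did not use. Alas2 was detected in 74.7% of the lower class and 91.5% of the upper class, against 0.262% of all other kept barcodes. Car2, the carbonic anhydrase of red cells, was detected in 87.7% and 93.5% of the classes and in 5.40% of the rest. The same order held for Slc4a1, the band 3 anion exchanger (81.5%, 92.5% and 0.493%). Since the rest were deeper (median 3662 UMIs) than the members (1981), each barcode was also thinned to 200 UMIs outside the genes of the rule, which gave 14.5%, 59.1% and 0.0258% for Alas2. Only 1 of 362 members (0.276%) had no UMI of Alas2, Car2 or any of 11 membrane skeleton genes, against 62.0% of the other barcodes. The label was weaker for 27 lower-class members, 17 of them in Nlrp3-/- replicate 1. In these, at least 2% of UMIs outside the rule's genes came from the macrophage list. The median share of RNA from the erythroid genes above, outside the rule's genes, was 0.277% in them. It was 0.948% in the 133 lower-class members without strong RNA of other cells.

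**Figure D1:**
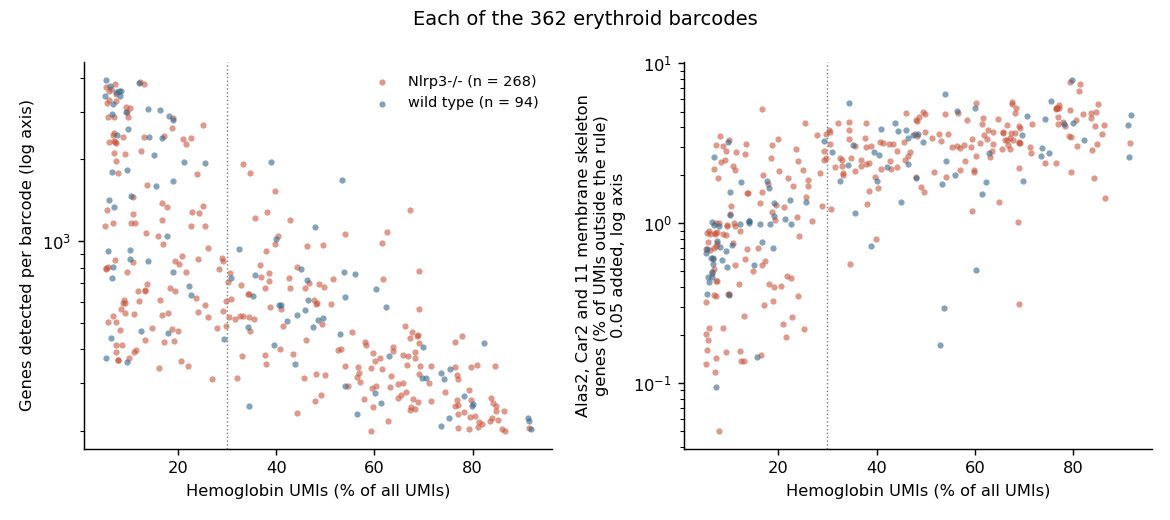
Each member by its hemoglobin share (percent of UMIs, horizontal axis) against the genes detected and against the share of its other UMIs that came from Alas2, Car2 and 11 membrane skeleton genes (vertical axes, log scales); points are barcodes, marked by genotype. The genes detected fall from a median of 1140 in the 5 to 30% class to 387.5 in the class over 30%.

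Levels of the 4 globin genes chose the members and are given as a description. The median member had 34.7% hemoglobin UMIs, 11.7% in the lower and 58.8% in the upper class, with a highest value of 91.8% and 50 members over 70%. At the edges of the rule, the 20 barcodes with 4 to 5% had a median of 10464.5 UMIs and 2723.5 genes, and 4 had none of Alas2, Car2 and the skeleton genes. The 15 members with 5 to 6% had 2856 UMIs and 1309 genes, and none lacked all of them. The median share of RNA from these genes, outside the rule's genes, was 0.437% in the first and 0.380% in the second. The edge between the classes was smooth, with medians of 695.5 genes in the 16 members at 25 to 30% and 572 in the 20 members at 30 to 35%.

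The promoters of the genes that define these cells are shown because the globin genes set the rule and Alas2 is the erythroid marker outside it. They are the 150 bases before the RefSeq start (GRCm38.p6), printed 5′ to 3′ on the strand of the gene, for Hba-a1 (chr11:32283522-32283671, plus strand), Hbb-bs (chr7:103827929-103828078, minus strand), Hbb-bt (chr7:103813924-103814073, minus strand) and Alas2 (chrX:150547267-150547416, plus strand). Capitals mark matches, on either strand, to CCACCC or CCACACCC (here CACCC), to GATA with A or T before it and A or G after it (here GATA), to CCAAT, and to TATAAA or the same letters with C first.
Hba-a1 promoter: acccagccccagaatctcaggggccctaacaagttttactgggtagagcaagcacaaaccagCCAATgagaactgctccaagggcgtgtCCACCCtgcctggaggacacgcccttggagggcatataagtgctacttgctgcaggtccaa
Hbb-bs promoter: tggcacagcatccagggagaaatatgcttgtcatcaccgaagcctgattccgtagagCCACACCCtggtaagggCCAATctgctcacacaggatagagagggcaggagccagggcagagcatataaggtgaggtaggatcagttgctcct
Hbb-bt promoter: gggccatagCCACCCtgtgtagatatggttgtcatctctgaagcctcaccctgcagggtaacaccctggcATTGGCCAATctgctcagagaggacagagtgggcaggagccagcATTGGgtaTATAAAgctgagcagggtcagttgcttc
Alas2 promoter: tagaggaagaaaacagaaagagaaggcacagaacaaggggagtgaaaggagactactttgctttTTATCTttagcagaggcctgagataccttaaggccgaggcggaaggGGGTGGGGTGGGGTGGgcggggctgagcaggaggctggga
In these letters Hba-a1 held CCAAT starting at position -88 and CACCC at -61, Hbb-bs held CACCC at -93 and CCAAT at -76, and Alas2 held GATA at -86 and overlapping CACCC matches at -40, -35 and -30, counted back from the start. Over the whole 250 bases upstream, CACCC was in 4 of the 4 globin promoters, CCAAT in 4 and GATA in 3, against 30.1%, 33.8% and 26.5% of 32851 RefSeq promoters. A match describes letters and is not a measured binding site.

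The globin mixture differed between the classes. Hbb-bt, the minor adult beta globin gene of the Hbb-s haplotype, was measured as its percentage of all beta globin UMIs. In the lower class it made up 29.6, 27.2 and 36.3% in the wild-type libraries and 26.2, 30.5 and 28.3% in the Nlrp3-/- libraries. In the upper class it made up 20.5, 15.3 and 26.6% in the wild-type libraries and 25, 25.8 and 22.4% in the Nlrp3-/- libraries, a smaller share in all 6 libraries. Hba-a2 made up 22.8, 34.5 and 23 against 31.1, 30.3 and 34.1 percent of alpha globin UMIs in the lower class and 39, 43 and 37.9 against 41.7, 40.6 and 39.9 percent in the upper class, wild type against Nlrp3-/-, a larger share in all 6. Since the 2 alpha genes are near copies, and the beta genes close relatives, how reads were split between copies is uncertain. The ratio of alpha to beta globin UMIs was 0.466, 0.437 and 0.295 against 0.257, 0.273 and 0.311 over all members. Wild-type replicates 1 and 2 were above all Nlrp3-/- libraries and replicate 3 lay inside their range, so the genotypes overlapped.

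Embryonic globins were scarce. Hbb-y, the embryonic epsilon-type beta globin, had 74 UMIs in all members, of which 72 were in the lower and 2 in the upper class; they came as 30, 0 and 27 in the wild-type libraries and 1, 4 and 12 in the Nlrp3-/- libraries. Hbb-bh1 and Hbb-bh2 had 0 UMIs and Hba-x, the embryonic zeta-type alpha globin, 5.

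How common the cells were did not separate the genotypes. Members made up 0.423% (95% Wilson interval 0.328 to 0.545), 0.0911% (0.0561 to 0.148) and 0.186% (0.119 to 0.291) of kept barcodes in the wild-type libraries. In the Nlrp3-/- libraries they made up 0.257% (0.206 to 0.319), 1.26% (1.08 to 1.47) and 0.254% (0.182 to 0.353); the intervals cover counting error only. Nlrp3-/- replicate 2 stood above all others and the remaining ranges overlapped. The means were 0.233% ± 0.171 (SD, n = 3) and 0.590% ± 0.580 (SD, n = 3), and the exact two-sided permutation test gave p = 0.5, with 0.1 the smallest value that 3 against 3 libraries allow. These are shares of captured barcodes, and more erythroid cells cannot be told apart from fewer cells of other types. The denominators were uneven. Nlrp3-/- replicate 1 had 31157 kept barcodes, against 10204 to 17569 in the other libraries. The median depth of its barcodes outside the members was 1481 UMIs, against 4185 to 7193.

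Neither class separated the genotypes. The lower class was 0.165%, 0.0455% and 0.137% of barcodes in wild-type controls and 0.119%, 0.494% and 0.145% in Nlrp3-/- mice (means 0.116% ± 0.062 and 0.253% ± 0.209, SD, n = 3; exact permutation p = 0.5). The upper class was 0.258%, 0.0455% and 0.0490% against 0.138%, 0.765% and 0.109% (means 0.118% ± 0.122 and 0.337% ± 0.371, SD, n = 3; exact permutation p = 0.5). Upper-class cells were 61.0%, 50% and 26.3% of members in wild-type and 53.8%, 60.8% and 42.9% in Nlrp3-/- libraries, a mean difference of 6.69 percentage points (exact permutation p = 0.7) whose sign turned to -3.04 without wild-type replicate 3.

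**Figure D2:**
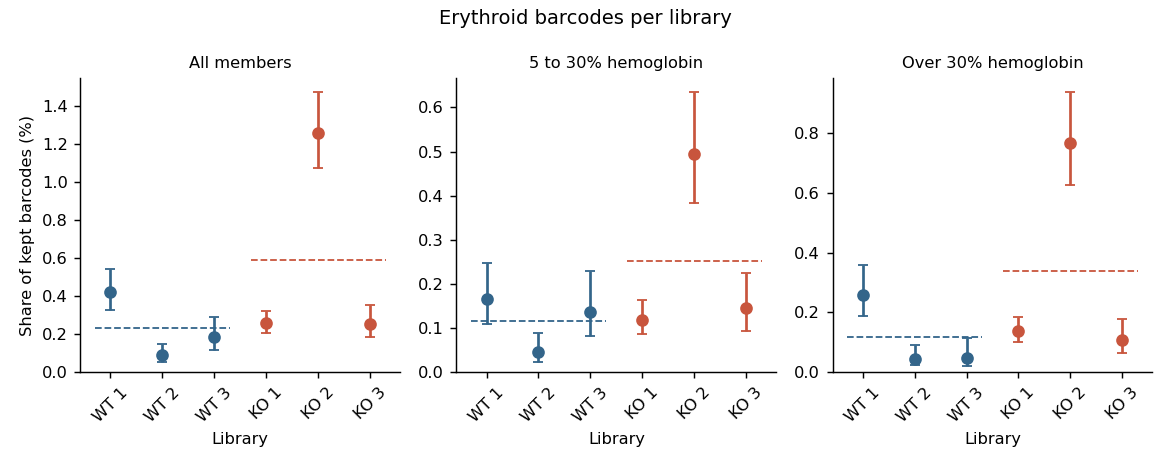
Members as a percentage of kept barcodes in each library, for all members and for each class, with 95% Wilson intervals (counting error only) and the mean of each genotype. Nlrp3-/- replicate 2 is highest, at 1.26% for all members, and the other 5 libraries overlap between genotypes.

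Hemoglobin RNA in near-empty barcodes was highest in the same library. It made up 0.130%, 0.0213% and 0.0541% of UMIs in barcodes with at most 100 UMIs of the wild-type libraries and 0.137%, 0.247% and 0.0686% in the Nlrp3-/- libraries, with Nlrp3-/- replicate 2 on top. Members held between 59.6% and 80.0% of all hemoglobin UMIs found in kept barcodes, and in the rest the median was 0.

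The classes differed across much of the measured transcriptome. Levels were taken as counts (UMIs) per 1000000 UMIs (CPM) outside the 9 genes of the rule, so that hemoglobin itself did not set them, averaged over 6 libraries, and compared as log2 differences after adding 10 CPM. Of 5345 genes with at least 20 UMIs in both classes together, 5.33% were higher in the upper class in all 6 libraries and 13.8% lower, with a median difference of -0.35. The classes were cut by hemoglobin, so these are descriptions without a test. Median depth outside the rule's genes was 2018 UMIs in the lower and 653 in the upper class, and the smallest classes, 8 members each in wild-type replicate 2 and 5 upper-class members in wild-type replicate 3, have the coarsest levels.

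**Figure D3:**
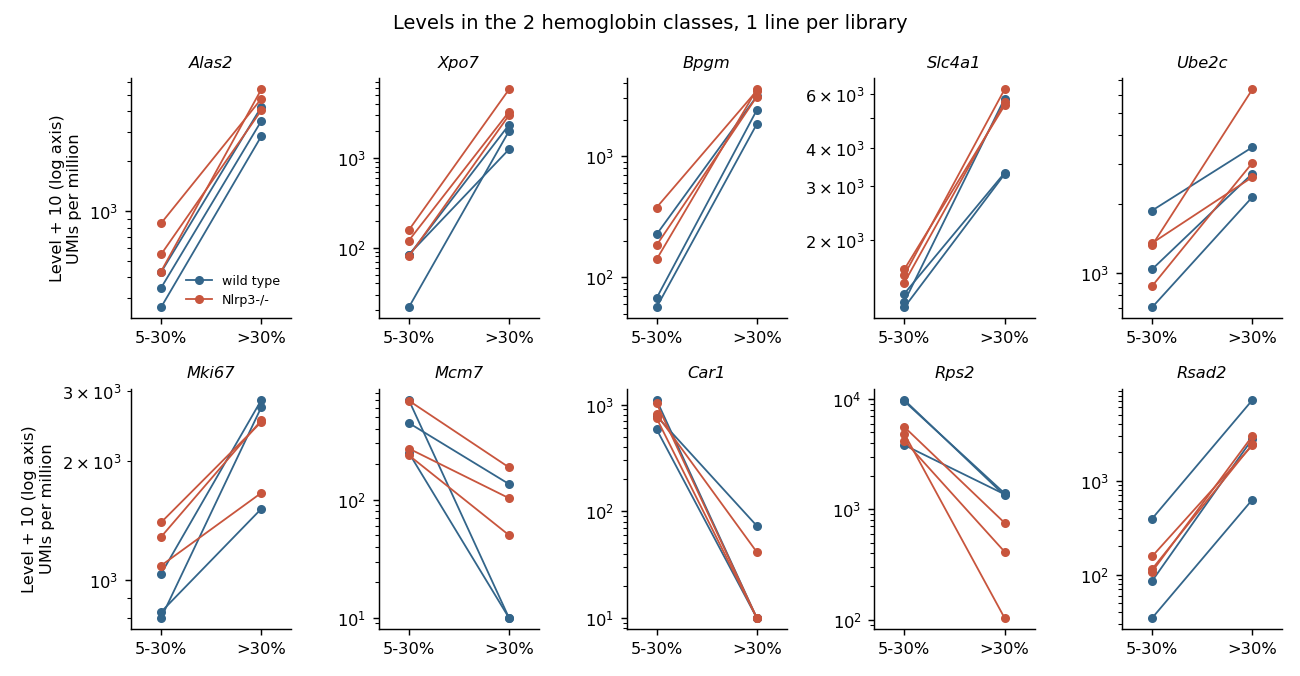
Levels of named genes (CPM outside the 9 genes of the rule, log axis) in the 5 to 30% and over 30% hemoglobin classes; each line joins the classes of 1 library. Alas2, Xpo7 and Slc4a1 are higher and Car1, Mcm7 and Rps2 lower in the upper class in all 6 libraries.

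Genes of heme synthesis and iron handling leaned to the upper class: 9 of 18 were higher there in all 6 libraries and 1 lower, with a median log2 difference of 1.14. Alas2, the rate-limiting erythroid enzyme, stood at 419.8, 336 and 254 CPM in the wild-type libraries and 424, 541 and 838 CPM in the Nlrp3-/- libraries in the lower class. In the upper class it was at 4251, 3495 and 2828 CPM in the wild-type libraries and 5428, 4055 and 4757 CPM in the Nlrp3-/- libraries, above the whole range of the lower class. Its mean went from 469 to 4136 CPM (log2 3.11). At the end of the pathway Fech, which inserts iron, went from 429 to 2292 (log2 2.39), while Slc25a37, the mitochondrial iron importer mitoferrin, went from 1176 to 5389 (log2 2.19). Tmem14c, which moves a heme precursor into mitochondria, was the exception, at 2437 to 751 (log2 -1.68).

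The carbonic anhydrases parted. Car1, an isoform of red cells, had 769.7, 576 and 1092 CPM in the wild-type libraries and 735, 800.5 and 1012 CPM in the Nlrp3-/- libraries in the lower class. It was close to gone in the upper class, with 5 UMIs against 654, and 0 in 4 libraries. Car2 went the other way, from 3331 to 7603 CPM (log2 1.19). Across the red cell enzymes and antioxidants 6 of 10 were higher in all 6 libraries and 1 lower (Car1), with a median of 1.08: Bpgm, which makes the bisphosphoglycerate that loosens oxygen from hemoglobin, went from 165 to 2898 (log2 4.05), Cat, the catalase, from 86.9 to 765 (log2 3.00) and Gpx1, a glutathione peroxidase, from 3419.8 to 12403 (log2 1.86).

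The membrane skeleton that gives red cells their shape was higher as a group, with 8 of 11 genes in all 6 libraries, none lower, and a median of 1.73. Slc4a1, which anchors it to the membrane, had 1242, 1320.2 and 1190.0 CPM in the wild-type libraries and 1437, 1522 and 1589 CPM in the Nlrp3-/- libraries in the lower and 5794, 3301 and 3269.7 CPM in the wild-type libraries and 5629, 6213 and 5503 CPM in the Nlrp3-/- libraries in the upper class. The 2 ranges did not overlap. Epb41 (protein 4.1) went from 293 to 3097 (log2 3.36) and Epb42 (protein 4.2) from 159.8 to 985 (log2 2.55).

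Of the erythroid surface proteins and receptors, 8 of 14 were higher in all 6 libraries and 1 lower (median 1.39). Kel, the Kell blood group endopeptidase, went from 298 to 1249 CPM (log2 2.03) and Tfrc, the transferrin receptor, from 1083 to 2877 (log2 1.40). Cd44, an adhesion receptor that erythroblasts lose as they mature, was the gene lower in all 6, from 166 to 14 (log2 -2.87). Kit, the receptor of early progenitors, had 1 UMI in the lower and 1 in the upper class. Epor, the erythropoietin receptor, had 99 and 37 UMIs, and none of 6 measured genes of the EPO-STAT5 response differed the same way in all 6 libraries (median 0.56).

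Genes of terminal maturation, autophagy and ubiquitin were higher in the upper class for the most part, with 16 of 21 higher in all 6 libraries, none lower, and a median of 2.48. Xpo7, a nuclear exportin of late erythroblasts, had 11.7, 72 and 73.9 CPM in the wild-type libraries and 147, 110.0 and 69.8 CPM in the Nlrp3-/- libraries in the lower class. In the upper class it had 1984, 2330.1 and 1237 CPM in the wild-type libraries and 5790.1, 3258 and 2985 CPM in the Nlrp3-/- libraries, a mean log2 difference of 5.02. Its values in the 2 classes were far apart in every library. Ube2o, the ubiquitin enzyme that clears ribosomes, went from 114 to 1313 (log2 3.41), Bnip3l, the mitophagy receptor NIX, from 286 to 1681 (log2 2.51), and Ubb, a ubiquitin gene, from 2218 to 10059 (log2 2.18). Tent5c, a poly(A) polymerase, went from 226 to 2485 (log2 3.40) and Mkrn1, a ubiquitin ligase, from 462 to 4102 (log2 3.12). Bcl2l1, whose BCL-XL protein guards erythroblasts against apoptosis, was higher in 5 of 6 libraries (46.9 to 591, log2 3.40).

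Among transcription factors the differences were smaller: 3 of 12 were higher in all 6 libraries and 1 lower (median 0.69). Gata1 averaged 81.6 and 82.2 CPM (log2 0.01), higher in 3 libraries and lower in 3. Klf1 went from 249 to 375 (log2 0.57, higher in 5). The 3 that were higher in all 6 were Lmo2, a bridging protein of the GATA1 complex (374 to 872), Sox6, a repressor of embryonic globin (364 to 1118), and Zfpm1, the GATA1 partner FOG-1 (309 to 550.0). Bcl11a, another globin repressor, had 35 UMIs in the lower and 0 in the upper class. Gata2 and Myb, factors of early progenitors, had 10 and 8 UMIs in the lower class and 0 and 4 in the upper.

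Proliferation genes differed in both directions. Of 19, 3 were higher in the upper class in all 6 libraries and 8 lower (median -0.21). Mki67, the Ki-67 antigen of dividing cells, had 1026, 792 and 821 CPM in the wild-type libraries and 1077, 1387 and 1274 CPM in the Nlrp3-/- libraries in the lower and 2834, 2718 and 1502 CPM in the wild-type libraries and 1649, 2493 and 2518 CPM in the Nlrp3-/- libraries in the upper class, and the 2 ranges did not overlap. The share of members with an Mki67 UMI went the other way, at 30.8% of the lower and 26.4% of the upper class once thinned to 200 UMIs, as it did for Top2a (19.2% and 14.9%). By level, Top2a (717 to 1443, log2 1.00) and Ube2c (1183 to 3392, log2 1.51), which act in mitosis, were the other 2 that were higher, while the replication genes Mcm3 (237 to 10.5, log2 -3.59), Mcm7 (423 to 72.9, log2 -2.38) and Pcna (719 to 236, log2 -1.57) were among the 8 that were lower, with Stmn1, a regulator of microtubules (941 to 482, log2 -0.95). Birc5, a mitotic gene, was higher in 4 libraries (log2 0.23) and Rrm2, of nucleotide synthesis, lower in 5 (log2 -0.10). Ribosomal protein genes were lower throughout: 12 of 12 listed genes and 79 of all 81 measured ribosomal protein symbols in all 6 libraries, with a median of -1.92 over the 81. Rps2 had 9551, 3817 and 9799 CPM in the wild-type libraries and 4179, 5576 and 4836 CPM in the Nlrp3-/- libraries in the lower class and 1386, 1359 and 1326 CPM in the wild-type libraries and 402, 744 and 93.3 CPM in the Nlrp3-/- libraries in the upper. The 2 ranges did not overlap.

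Finer steps of hemoglobin gave an order to these differences. Members were pooled over libraries into steps of 5 to 10%, 10 to 30%, 30 to 50% and over 50% hemoglobin UMIs, holding 68, 94, 78 and 122 members; Nlrp3-/- replicate 2 gave more members than any other library to each pool, and no error is given. In that order Car1 stood at 911, 734, 41.6 and 12 CPM. Within libraries Car1 was lower at 30% and above than below it in all 6, but between the first 2 steps it was lower in the second in Nlrp3-/- replicates 2 and 3 only, at 1095 to 349 and 1788 to 329 CPM, level in wild-type replicate 2 (575 to 578) and higher in the other 3 libraries. The sum of Mcm2 to Mcm7 stood at 1981, 1693, 571 and 169. Alas2 climbed through every step (315, 693, 2192 and 6590.0), and Bpgm (78.6, 229, 706 and 5446) and Xpo7 (19.7, 167, 873 and 5927) were highest in the last. Mki67 did not follow either course: it was 909, 1504, 3480.2 and 1108, highest at 30 to 50%, and Top2a had the same peak (758, 699.6, 1766 and 723). Within libraries both genes were highest at 30 to 50% in 5 of 6, with Mki67 there at 3630.4 CPM in wild-type replicate 1 and 3383, 3574 and 4115 in the Nlrp3-/- libraries. The step held 2 members in wild-type replicate 2 and 1 in replicate 3, which was the exception.

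**Figure D4:**
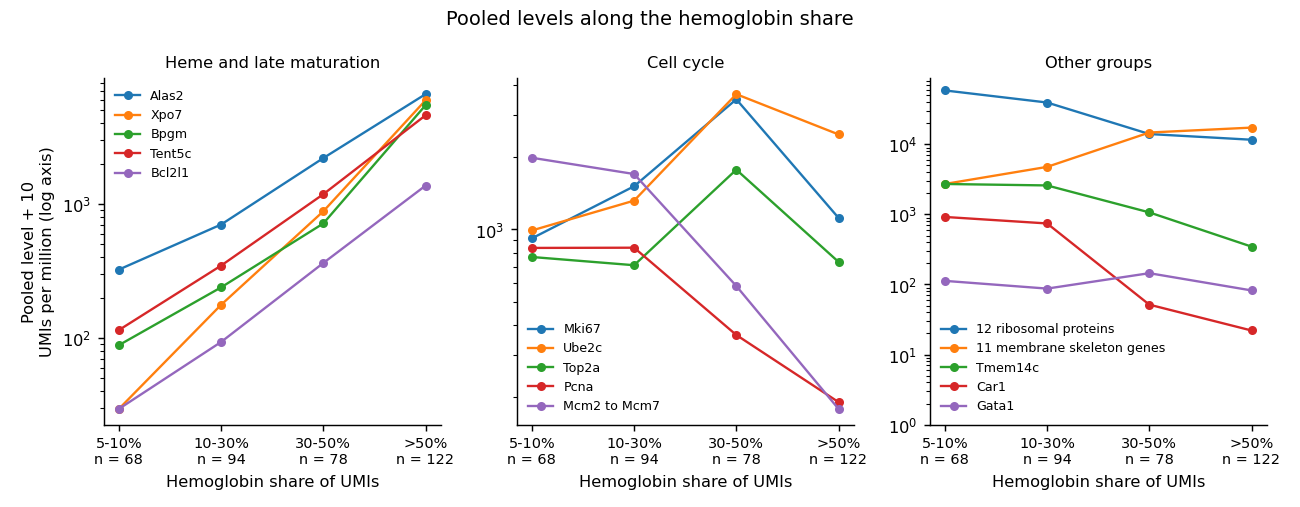
Pooled levels (CPM outside the rule's genes, plus 10, log axis) of named genes in 4 steps of hemoglobin share, with the number of members under each step. Pooled Car1 is lowest in the last step, Alas2 and Xpo7 climb along the steps, and Mki67 is highest, at 3480, in the 30 to 50% step.

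Several genes outside the lists, chosen after their values were seen, were also far higher in the upper class. Isg15, a ubiquitin-like protein of the interferon response, went from 180.4 to 2993 CPM (log2 3.98) and Rsad2, the antiviral enzyme viperin, from 139 to 3057 (log2 4.36). In the upper class Rsad2 had 2771, 7184 and 619 CPM in the wild-type libraries and 2975, 2368 and 2425 CPM in the Nlrp3-/- libraries. It was above the lower class in all 6 libraries, with the lowest value in wild-type replicate 3, where the class had 5 members. Thinned to equal depth, Rsad2 was detected in 5.16% of the lower class, 39% of the upper class and 0.841% of other barcodes, and Isg15 in 4.42%, 27% and 2.30%. Of other interferon-response genes looked at, Ifit1 had 5 UMIs in the lower and 13 in the upper class, Ifit3 2 and 0, and Oasl2 7 and 3. Irf7 went from 30.6 to 118 CPM (log2 1.66, higher in 5 libraries), on 20 and 21 UMIs. In the maturation list, Isg20, an interferon-induced exonuclease, went from 364 to 1382 (log2 1.89) and Ube2l6, the enzyme that conjugates ISG15, from 219.7 to 1748 (log2 2.94), both higher in all 6 libraries. Tmcc2 (344 to 5607, log2 3.99) and Slfn14 (32.5 to 951, log2 4.50), a ribosome-associated nuclease, were higher in all 6 libraries too, and so was the nuclear RNA Malat1 (10071 to 36148, log2 1.84).

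RNA of other cell types was found in some members and unevenly between libraries. The macrophage list took at least 2% of UMIs outside the rule's genes in 30 of 362 members, 27 of them in the lower class. They came as 1, 1 and 1 in the wild-type and 17, 7 and 3 in the Nlrp3-/- libraries, and the 17 of Nlrp3-/- replicate 1 were 45.9% of its lower class. Summed over all members, the macrophage list took 0.137%, 0.340% and 0.420% of UMIs outside the rule's genes in the wild-type libraries. In the Nlrp3-/- libraries it took 1.69%, 0.701% and 1.21%, so the genotypes did not overlap. Immunoglobulin RNA was strong in 2 members and RNA of erythroblastic island macrophages in 4, while no member reached that level for the neutrophil, B, T and NK, mesenchymal, endothelial, megakaryocyte, mast cell or plasmacytoid dendritic lists. Between the classes, 0 of 10 macrophage genes and 2 of 8 mesenchymal genes (Col5a1 and Postn, 21 and 20 UMIs in the upper class) were higher in the upper class in all 6 libraries. Scrublet, a doublet caller run for each library, marked 64 members (26 lower, 38 upper) as 15, 9 and 7 in the wild-type and 0, 15 and 18 in the Nlrp3-/- libraries. Of all kept barcodes it marked 11.4%, 14.2% and 8.40% in the wild-type and 26.2%, 9.77% and 11.2% in the Nlrp3-/- libraries. The number marked per library was set in advance, from an assumed rate of 0.8% per 1000 barcodes. The marked members were kept. In the upper class they numbered 11, 6 and 3 in the wild-type and 0, 5 and 13 in the Nlrp3-/- libraries. Without them the upper class would hold 25, 2 and 2 members in the wild-type and 43, 88 and 2 in the Nlrp3-/- libraries. The class levels above, in all 6 libraries, include the marked members.

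Gene levels were then compared between genotypes on UMIs summed per library, with edgeR's quasi-likelihood test. The design asked for 20 members per library, which left wild-type replicate 1 alone against the 3 Nlrp3-/- libraries, its spread assumed to be like theirs. This fit called 358 of 3417 genes (10.5%) at an adjusted p under 0.05, 187 higher (5.47%) and 171 lower (5%) in Nlrp3-/- members; with Scrublet doublets left out it called 1 gene, and DESeq2 on the same libraries called 114. With all 6 libraries, a fit added after the data were seen, 23 of 1803 genes passed (1.28%), 18 higher (0.998%) and 5 lower (0.277%). The named values below come from the fit of 6 libraries unless the fit of 4 libraries is named, and that fit was sensitive to single libraries: it called 401 genes without wild-type replicate 2, but 1 and 2 without wild-type replicates 1 and 3, and 2, 7 and 3 without Nlrp3-/- replicates 1, 2 and 3.

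Genes beyond the lists are named here because they were called, after their values were seen. Erythroid genes higher in Nlrp3-/- members in the fit of 6 libraries included Kel, Bcl2l1 and Tfdp2, a partner of the E2F cell-cycle factors. Kel stood at 261, 256 and 285 against 766, 662 and 691 CPM, wild type against Nlrp3-/-, without overlap (log2 fold change 1.32, SE 0.265, adjusted p = 0.0474, edgeR). Bcl2l1 had 64, 85.5 and 52.6 against 359.9, 277 and 162 (log2 fold change 2.01, SE 0.403, adjusted p = 0.0474, edgeR). Bcl2l1 passed the filter on low counts through the Nlrp3-/- libraries, so its call is not read as support for a difference. Tfdp2 had 413, 363 and 308 against 1266, 969.8 and 823 (log2 fold change 1.42, SE 0.289, adjusted p = 0.0474, edgeR). For each of the 3, every Nlrp3-/- library lay above every wild-type library. They were named because they were called, and the share of all tested genes that separate this way was not counted. The separation is therefore not further support. With the 32 members that held strong RNA of other cells left out, Kel was at 1.54 (edgeR adjusted p = 0.0452) and Bcl2l1 at 2.30 (edgeR adjusted p = 0.0464). Over all alternatives with 6 libraries the adjusted p ran from 0.0116 to 0.238 for Kel, 0.00494 to 0.238 for Bcl2l1 and 0.00973 to 0.238 for Tfdp2, by edgeR or DESeq2. In the fit of 4 libraries Bcl2l1 was at 1.83 with an adjusted p of 0.0148, called by edgeR, while Kel was at 1.18 with an adjusted p of 0.0827 and Tfdp2 at 1.06 with an adjusted p of 0.106, not called. Within the classes Kel pointed the same way and missed the threshold: it was at 1.08 (SE 0.345; edgeR adjusted p = 0.152) in the lower and 0.79 (SE 0.402; edgeR adjusted p = 0.375) in the upper class, where Bcl2l1 was at 1.39 (SE 0.532; edgeR adjusted p = 0.265). These genes (Kel and Tfdp2 in 6 and Bcl2l1 in 5 of 6 libraries) were also higher in the upper than in the lower class, and the upper class gave 15.6, 11 and 8.50 against 28.9, 22.6 and 15.8 percent of the summed UMIs outside the rule's genes, higher in Nlrp3-/- mice without overlap. By number it was 45.8% ± 17.7 of wild-type and 52.5% ± 9.03 of Nlrp3-/- members (SD, n = 3). The part of this mixture in the differences was not tested.

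Genes lower in Nlrp3-/- members included the ribosomal protein genes Rpl28 and Rpl41, the splicing gene Snrpd2, and Rfesd. Rpl28 had 4758, 3354 and 3845 against 1776, 1973 and 1897 CPM (log2 fold change -1.16, SE 0.220, adjusted p = 0.0474, edgeR) and Rpl41 9043, 5768 and 6180.5 against 3042, 3719 and 3088 (log2 fold change -1.17, SE 0.233, adjusted p = 0.0474, edgeR), in both cases without overlap. Both were named because they were called, so the separation is not further support. Over all alternatives with 6 libraries the adjusted p of Rpl28 ran from 0.00189 to 0.238 (edgeR or DESeq2). Rfesd had 202, 149.5 and 180.2 against 11.6, 59.1 and 44.1 (log2 fold change -2.04, SE 0.401, adjusted p = 0.0474, edgeR). Rfesd passed the filter on low counts through the wild-type libraries, so its call is not read as support for a difference. It was also lower in the upper than in the lower class in all 6 libraries (log2 -2.82), and the part of the class mixture was not tested. The 12 listed ribosomal genes had a median log2 fold change of -0.83 with 0 called; the fit of 4 libraries, which rests on 1 wild-type library, called 11 of 12 lower with a median of -1.26. Within the classes, with all 6 libraries, their median was -0.63 over 12 genes in the lower and -0.74 over 11 in the upper class, with 0 called. The same 12 genes were lower in the upper than in the lower class in all 6 libraries (median -2.01), and the upper class gave the larger share of summed UMIs in Nlrp3-/- mice, as above. The lower class was also shallower in Nlrp3-/- mice without overlap: its median per library was 4482 to 9330 UMIs and 1592 to 2418 genes in wild-type controls against 1241 to 3517 UMIs and 609 to 1419.5 genes, and the part of either in the differences between genotypes was not tested.

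Over all members, Lyz2 of the macrophage list and Fn1 were also called higher in Nlrp3-/- mice. In the upper class the macrophage list took 0.154%, 0.427% and 4.04% of UMIs outside the rule's genes in wild-type controls. In Nlrp3-/- mice it took 0.205%, 0.273% and 0.131%. In wild-type replicate 3, 1 of 5 upper-class members held 99.3% of the UMIs of the list. The upper-class fit with 20 members per library held no wild-type library but replicate 1, so it cannot decide whether the list differed. Lyz2, the lysozyme of myeloid cells, had 502, 1089.5 and 1562 against 7500.4, 3577 and 4338 CPM (log2 fold change 2.23, SE 0.433, adjusted p = 0.0474, edgeR). Fn1, fibronectin, had 59, 107 and 67.6 against 615, 749.9 and 603 (log2 fold change 3.13, SE 0.332, adjusted p = 0.00205, edgeR). Mrc1, the mannose receptor, had 0, 21.4 and 30 against 151, 185 and 147 CPM, on 0, 1 and 4 UMIs in the wild-type libraries. Mrc1, Fcgr2b and H2afy were near 0 in wild-type controls and passed the filter on low counts through the Nlrp3-/- libraries, so their calls support no difference. The macrophage share of UMIs given above was higher in the same libraries. The median over 7 tested genes of that list was 2.23 with 2 called (Lyz2 and Mrc1), and 0 of 2 tested island macrophage genes were called (median 0.97). The fit of 4 libraries has 1 wild-type library, in which Mrc1 and Adgre1 of the list had 0 UMIs, so its calls for these lists are not read as support. Without the 32 members holding strong RNA of other cells, the fit of 6 libraries called 77 genes, with Lyz2 at 2.02 (edgeR adjusted p = 0.0452) and Fn1 at 2.17 (edgeR adjusted p = 0.0473). Lgals3 was then at 2.20 (edgeR adjusted p = 0.0525; 1.94 with all members) and Cd63 at 1.61 (edgeR adjusted p = 0.0595; 2.14 with all members), neither called, and Mrc1, Fcgr2b and H2afy did not pass the filter on low counts. The part of the remaining macrophage RNA was not tested. Other genes called higher were Cmas, Cyba, Tcp11l2, Neat1, Gda, Kdm6a and Xist, of which Xist drives X inactivation and Kdm6a escapes it. Cmas, Tcp11l2, Gda, Kdm6a and Xist passed the filter on low counts through the Nlrp3-/- libraries, as did Fn1 and Cd63 above. The calls of these genes are not read as support for a difference. Cmas, Tcp11l2 and Gda were higher in the upper than in the lower class in all 6 libraries, and the part of the class mixture in their differences was not tested.

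**Figure D5:**
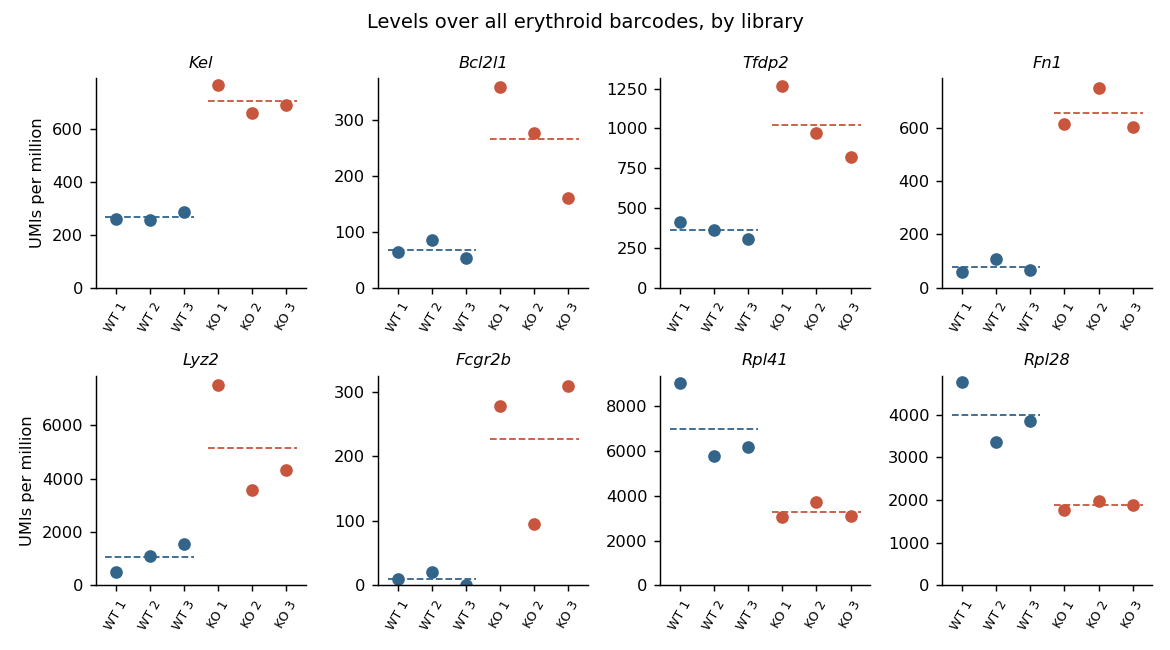
Levels (CPM outside the rule's genes) of named genes over all members in each library, by genotype, with the mean of each genotype. Kel, Bcl2l1, Tfdp2, Fn1, Lyz2 and Fcgr2b are higher and Rpl28 and Rpl41 lower in every Nlrp3-/- library than in every wild-type library. The genes shown were chosen because they were called, so this separation is not further support. Bcl2l1, Fn1 and Fcgr2b passed the filter on low counts through the Nlrp3-/- libraries, so their calls are not read as support for a difference.

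Few genes of the erythroid lists were called between genotypes. The fit of 6 libraries called 23 of all 1803 genes (1.28%), so few calls are not particular to these lists. In the fit of 6 libraries 0 of 8 transcription factors, 1 of 14 surface proteins (Kel), 0 of 16 heme and iron genes (median log2 fold change 0.14), 0 of 10 red cell enzymes, 0 of 11 membrane skeleton genes (median 0.57), 2 of 20 maturation genes (among them Bcl2l1, median 0.93) and 0 of 19 proliferation genes (median -0.34) were called. Of the EPO-STAT5 genes 2 could be tested and Bcl2l1 was called, which passed the filter on low counts through the Nlrp3-/- libraries. Alas2 had 1018, 684 and 473 CPM in the wild-type libraries and 1869, 1334 and 1456 CPM in the Nlrp3-/- libraries over all members, and its log2 fold change was 1.01 (SE 0.318; edgeR adjusted p = 0.0847). Its 2 groups did not overlap, but it missed the threshold, and the share of all tested genes that separate this way was not counted. Isg15 and Rsad2 were at 0.24 (SE 0.587; edgeR adjusted p = 0.840) and 0.26 (SE 0.695; edgeR adjusted p = 0.857). In the fit of 4 libraries Xpo7 was called higher as well, and Alad, Tmem14c and Fth1, of heme and iron handling, lower. Among the genes it called, Xist, Maf, Mrc1, Irgm2, Ms4a6d, Asah1, Pgd, Cyth4, Adgre1 and Igf1 had 0 UMIs in wild-type replicate 1, its only wild-type library, so no fold is given and they had to be higher; Maf stood at 64.1 CPM in wild-type replicate 2 and Igf1 at 37.5 in replicate 3. Those with the largest fall were Rfesd, Gemin7, Tecr, Pin4, Pmm1, Stard10, Atp5mpl, Mns1, Uqcrq and Selenoh. Of these, Rfesd, Gemin7, Pin4 and Pmm1 passed the filter on low counts through wild-type replicate 1, so they had to be lower. In the fit of 6 libraries Rfesd was called, while Tecr, Stard10, Atp5mpl, Mns1 and Uqcrq were not. Gemin7, Pin4, Pmm1 and Selenoh did not pass its filter. These falls are not read as support for a difference.

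By class, the fits with 20 members per library called 1 of 777 genes (0.129%, Xist) in the upper class, where 81 had an unadjusted p under 0.05, and 282 of 2947 (9.57%) in the lower class, 170 higher (5.77%) and 112 lower (3.8%). These counts turned on the setting: with Scrublet doublets left out they were 68 in the upper and 5 in the lower class, and with DESeq2 0 and 99. Both fits with 20 members per library had wild-type replicate 1 as their only wild-type library. The upper-class fit also lacked Nlrp3-/- replicate 3, which had 15 such members. Their counts are therefore not read as support for a difference. With all 6 libraries 1 of 338 (0.296%, Xist) and 9 of 1501 (0.6%) were called by edgeR. The 9 genes of the lower class were Slc40a1, Fn1, Mrc1, C1qb, Cyba, Lyz2, Cd63, Neat1 and Xist, among them C1qb, Mrc1 and Lyz2 of the macrophage list and Slc40a1, the iron exporter ferroportin, of the island macrophage list. Xist had 0 UMIs in wild-type members, and the lowest lower-class values of Mrc1 and Slc40a1 were 0 and 8.2 CPM. As over all members, the calls of Xist, Mrc1, Fn1 and Cd63 are not read as support for a difference. The part of macrophage RNA in the other calls was not tested.

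The other inflammasome genes were thinly measured in these cells. Over all members Casp1, the protease that NLRP3 activates, had 12 UMIs, Pycard, its adaptor, 71, P2rx7, the ATP-gated channel upstream, 6, and the cytokine genes Il1b and Il18 had 139 and 29. Pycard had 23.3, 72 and 57.5 CPM in the wild-type libraries and 212, 79.4 and 192 CPM in the Nlrp3-/- libraries in the lower class. In the fit of 4 libraries, with wild-type replicate 1 alone, the log2 fold change of Pycard was 2.30 there and 1.94 over all members. In the lower class Pycard passed the filter on low counts through Nlrp3-/- libraries, so this fit is not read as support for a difference. In the lower class of the Nlrp3-/- libraries the macrophage list took 2.29%, 0.826% and 1.41% of UMIs outside the rule's genes. In wild-type controls it took 0.134%, 0.329% and 0.0837%, and its part in the Pycard difference was not tested. In the fit of 6 libraries only Il1b of the panel could be tested over all members, at 0.24 (SE 0.729; edgeR adjusted p = 0.881). None of 3 measured genes of the panel differed the same way between the classes in all 6 libraries. At 10 Nlrp3 UMIs in the 94 wild-type members, a level of Nlrp3 per class could not be compared.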

How the data were processed

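Entheses of wild-type and Nlrp3-/- mice were dissociated and run on the 10x Genomics 3′ v3 chemistry. The authors deposited unfiltered UMI count matrices, 1 per library, with all barcodes and 32285 genes. The submitters' processing notes name Cell Ranger 2.1.1 and mm10, while the deposited file headers name Cell Ranger version 4; the counts were used as deposited. Gene positions follow GENCODE on GRCm38, where 32235 of 32285 gene IDs matched, and promoter letters follow RefSeq GRCm38.p6.

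The members, gene lists and tests were chosen with earlier results of these data known. Levels are counts per 1000000 UMIs (CPM) outside the 9 genes of the rule. Doublets marked by Scrublet (scanpy 1.11.5) were kept and left out as an alternative. Counts summed per library were tested with edgeR 4.0.16 (limma 3.58.1, R 4.3.3; TMM, filterByExpr, quasi-likelihood test, Benjamini-Hochberg adjustment over all genes tested, threshold 0.05), with DESeq2 1.42.0 as an alternative; the edgeR step was tested on simulated data. Shares were compared with exact two-sided permutation tests over 20 assignments (scipy 1.17.1). The genes named are those of the lists and up to 10 genes in each direction with the largest fold change, a mean of at least 20 CPM, no overlap between groups and an assigned symbol; genes named outside this are said to be so. Intervals and floors (3 counts) cover counting error only. Alternatives changed the normalization, filters, limits on barcodes, doublets, members with RNA of other cells, pairing and the libraries used. Some genes of the lists are counted but not reported by name here.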

Additional observations from a re-analysis of the deposited data

How the results depend on the processing

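Shares of erythroid barcodes differed between genotypes in the same direction under all settings run, with mean differences of 0.0218 to 0.525 percentage points (all members), 0.0160 to 0.204 (lower class) and 0.00584 to 0.334 (upper class) when 1 library was left out; none passed the exact permutation test, which cannot go below 0.1. The share of the upper class among members ranged from -3.04 to 14.3 percentage points when 1 library was left out, and was -1.73 with no collagen and S100 limits (exact permutation p = 1).

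Counts of genes called between genotypes depended strongly on the setting, and the cause was not tested. Over all members, 358 in the 4-library fit became 161 with no filter on low counts, 114 with DESeq2, 1 with Scrublet doublets left out and 23 with all 6 libraries; leaving out 1 Nlrp3-/- library gave 235 to 367. With all 6 libraries the counts were 85 (DESeq2), 45 (RLE size factors), 77 (members with RNA of other cells left out), 162 (Scrublet doublets left out) and 1 to 401 (1 library left out: 1 without wild-type replicate 1, 401 without wild-type replicate 2, 2 without wild-type replicate 3, 2, 7 and 3 without Nlrp3-/- replicates 1, 2 and 3). In the upper class, 1 became 0 with DESeq2 and 68 with Scrublet doublets left out. In the lower class, 282 became 126 with no filter, 99 with DESeq2, 5 with Scrublet doublets left out and 9 with all 6 libraries, and 209 to 334 with 1 library left out.

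The replicate numbers did not pair the samples: correlations of same-numbered deviations were -0.145, -0.269 and 0.00838 over 2979 genes, and no wild-type library correlated best with its own number. With the replicate block the 6-library fit called 1 gene over all members, 0 in the upper class and 2 in the lower class; the 4-library fit shares 1 number between genotypes and could not be blocked. Leaving out wild-type replicate 1 from that fit, or from that of the upper class, leaves no wild-type library, and leaving out a Nlrp3-/- library of the upper class leaves no residual degrees of freedom; these were not run.

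For single named genes, 431 values kept their direction and side of the threshold, 256 lost it, 13 gained it and 0 reversed. The upper class had a median of 653 UMIs outside the genes of the rule, and its first fit rests on 1 wild-type library.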

Other observations

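Barcodes that reached 5% hemoglobin but failed the other limits numbered 96 of 458. Of these, 43 exceeded the collagen limit and 66 the S100 limit, and Nlrp3-/- replicate 1 alone lost 63 of its 143. Immunoglobulin RNA in the lower class came almost wholly from single members: 1 barcode held 99.9% of these UMIs in wild-type replicate 3 and 1 held 98.5% in Nlrp3-/- replicate 2. Erfe, the erythroid hormone gene that lowers hepcidin and was chosen after its values were seen, had 5 UMIs in the lower and 1 in the upper class.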
